A study of Homo sapiens with 9 samples.

Results

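The genes described here are the cytosolic ribosomal protein genes, which encode the protein part of the ribosome that translates nuclear messages. They were taken by gene name: every listed name made of RPL or RPS and a number, with or without a final A, together with RPLP0, RPLP1, RPLP2, RPSA and RPS4X. This gave 77 of the 57773 listed genes, 46 of the large 60S subunit and 31 of the small 40S subunit. They lie on 21 chromosomes, with 12 on chromosome 19, 7 on chromosome 3, 6 on chromosome 17 and 4 on chromosome X. The rule uses names and no measured value, though it was set with earlier results of these data known.

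A ribosome holds 1 copy of nearly every one of these proteins, and cells make them in matched amounts by transcribing the genes strongly and by controlling their messages as a group. Most vertebrate ribosomal protein messages begin with a C followed by a run of pyrimidines, the terminal oligopyrimidine (TOP) tract, through which the mTORC1 kinase and the binding protein LARP1 regulate their translation and stability. Ribosomal proteins that find no place in a ribosome are degraded, and RPL5 and RPL11 in their free form bind the p53 inhibitor MDM2.

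The libraries were made from OVCAR-8, an established human ovarian cancer cell line, in 3 groups of 3: cells given CDK12-2 siRNA, cells given CDK12-6 siRNA, and cells given a control siRNA against luciferase, all collected at 48 h. CDK12 is a kinase that phosphorylates the tail of RNA polymerase II during elongation, and the study asked what its depletion does to messenger RNA. The 3 libraries of a group are numbered AK39, AK41 and AK49, and the labels do not explain these numbers. The labels call the 3 libraries of a group technical replicates, so the p-values below describe spread among libraries and not among separate cultures. All 3 groups are the same line and all were transfected, so there is no untransfected sample to set the control against.

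Levels are given in RPKM, the reads of a gene scaled to the length of its exons in kilobases and to 1000000 reads of the library. Fold changes are differences of log2(RPKM + 1) with their standard error (SE), and a gene is said to have risen or fallen where its limma p-value, adjusted over all tested genes by Benjamini-Hochberg, was under 0.05. Tested genes had at least 1 RPKM in at least 3 libraries. That left 15208 genes, among them 76 of the 77 ribosomal protein genes.

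The reads that fell in listed genes numbered 104963048 to 131472019, which was 68.2% to 82.7% of all reads. The lowest shares were in CDK12-2 AK39 (68.2%) and CDK12-6 AK39 (70.5%). CDK12 itself stood at 2.06, 2.57 and 2.70 RPKM in the CDK12-2 libraries (AK39, AK41 and AK49, the order used throughout) and at 2.09, 2.37 and 2.75 RPKM in the CDK12-6 libraries, against 8.33, 7.09 and 8.40 RPKM in the luciferase libraries. It fell by 1.38 on the log2 scale with CDK12-2 (SE 0.11, limma adjusted p = 5.76e-05) and by 1.39 with CDK12-6 (SE 0.11, limma adjusted p = 5.32e-05). The summed level of 6 carcinoma markers was 392.6 to 536.3 RPKM, although one of them, KRT19, was under 0.1 RPKM in every library. Markers of other cell types were lower: the 4 leukocyte markers summed to 0.226 to 0.528 RPKM with CD3E and PTPRC under 0.1 RPKM in all libraries, the 2 endothelial markers to 0.0416 to 0.136 RPKM, and the fibroblast markers to 12.5 to 36.1 RPKM with COL3A1 and DCN under 0.1 RPKM.

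The start of the message is what ribosomal protein genes are best known for, and it was read for those members the results below turn on. Each line gives 10 bases before and 20 bases from the annotated start, 5′ to 3′ on the gene's strand, with the C and the unbroken run of pyrimidines that begins at the start in capitals. Sequences are from RefSeq, build GRCh38.p14. The first set fell or rose with an siRNA and has a tract at the start, and the second set fell and has none that begins at the start. In the third, RPS18 had the highest level, RPS24 had the highest fold change with CDK12-6 of the genes that passed with neither siRNA, and RPS21 and RPS29 differed most between the CDK12 siRNAs.
RPL36A: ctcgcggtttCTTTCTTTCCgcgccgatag
RPLP0: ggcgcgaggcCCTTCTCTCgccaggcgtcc
RPL13A: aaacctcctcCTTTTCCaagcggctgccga
RPL29: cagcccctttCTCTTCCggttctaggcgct
RPL10: ccactctcagaaatatacgtctgtcacagt
RPS7: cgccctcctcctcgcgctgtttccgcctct
RPS18: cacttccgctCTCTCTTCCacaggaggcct
RPS24: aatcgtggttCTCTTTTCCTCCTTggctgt
RPS21: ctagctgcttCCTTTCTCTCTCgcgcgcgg
RPS29: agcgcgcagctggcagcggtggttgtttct

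In GRCh38.p14 these windows are chrX:101391001-101391030 (plus strand) for RPL36A, chr12:120201092-120201121 (minus) for RPLP0, chr19:49487598-49487627 (plus) for RPL13A and chr3:51995876-51995905 (minus) for RPL29. Those without a tract at the start are chrX:154398055-154398084 (plus) for RPL10 and chr2:3575250-3575279 (plus) for RPS7. The last set is chr6:33272065-33272094 (plus) for RPS18, chr10:78033853-78033882 (plus) for RPS24, chr20:62387093-62387122 (plus) for RPS21 and chr14:49598691-49598720 (minus) for RPS29. A promoter entry was found for 62 of the 77 genes. At the annotated start, 42 of the 62 (67.7%) had a C followed by at least 4 pyrimidines, against 4.07% of the 35116 promoters of all genes. The tract was 5 to 19 bases long with a median of 8. It was longest in RPL39 (19 bases) and RPL7A (16 bases). Of the 62 starts, 74.2% were a C, against 14.7% of all promoters. Anywhere in the 30 bases of such a window, a C with at least 4 pyrimidines after it was found in 56 of the 62 (90.3%). The share over all promoters was 38.4%.

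Motifs were searched on both strands of the 300 bases around the start, 250 before it and 50 after. CCGGAAG (reverse CTTCCGG), the core bound by ETS factors, was in 21 of the 62 (33.9%), against 10.3% of all promoters, and its reverse form can overlap a pyrimidine tract. AAGATGG (reverse CCATCTT), a YY1 core, was in 8 (12.9%), against 5.84%. TATAAA (reverse TTTATA) was in 5 (8.06%), against 11.5%. A match describes letters in a window and is not a site.

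In OVCAR-8 cells the ribosomal protein genes were among the most abundant messages. The median of the 76 tested members under luciferase siRNA was 131 RPKM, against 5.42 RPKM for all tested genes. Of the members, 47 were above 100 RPKM and 9 above 300 RPKM. The 5 with the highest mean RPKM over all libraries held 15.0% of the member reads in the luciferase libraries. Within the family RPKM spanned a wide range, and so did the listed exon lengths it divides by, 767 to 8153 bases. RPL37 (8153 bases) and RPLP2 (1955 bases) had 114587 and 114733 reads in the luciferase libraries, yet averaged 31.8 and 135 RPKM there. The ranks by RPKM below therefore depend on listed length as well as on the reads of a gene.

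RPS18, a protein of the 40S head, had the highest level, at 813, 833 and 754 RPKM with CDK12-2 and 904, 946 and 757 RPKM with CDK12-6, against 770.3, 871 and 692 RPKM with luciferase. RPL8, which sits near the peptidyl transferase centre, came next by mean. Under luciferase siRNA RPL8 was above RPS18 in AK39 and AK49 and below it in AK41. RPS12, RPL5 and RPS10 followed it among the 5 highest means over all libraries. RPS10 averaged 400.1 ± 26.2 RPKM with CDK12-2 and 429 ± 27.9 RPKM with CDK12-6, against 387 ± 37.7 RPKM with luciferase (SD, n = 3 each), and its exons are shared with the read-through gene RPS10-NUDT3. All groups overlapped for RPS18 and for RPS10, and neither gene passed the test.

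At the low end of RPKM, RPL28 averaged 13.9 ± 1.55, 13.8 ± 0.972 and 16.7 ± 3.36 RPKM (SD, n = 3 each) with CDK12-2, CDK12-6 and luciferase. Its listed length is 6927 bases. RPL37 averaged 35.1 ± 3.60, 37.3 ± 7.51 and 31.8 ± 3.85 RPKM, and RPS26 averaged 38.3 ± 1.92, 37.9 ± 1.41 and 40.2 ± 3.05 RPKM, in the same order. RPS26 and RPL37 differed by less than their SD in the CDK12-6 libraries, by more than the SD of RPS26 in the CDK12-2 libraries and by more than both SDs in the luciferase libraries. RPL28 lay below both by more than the SDs in every group.

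**Figure D1:**
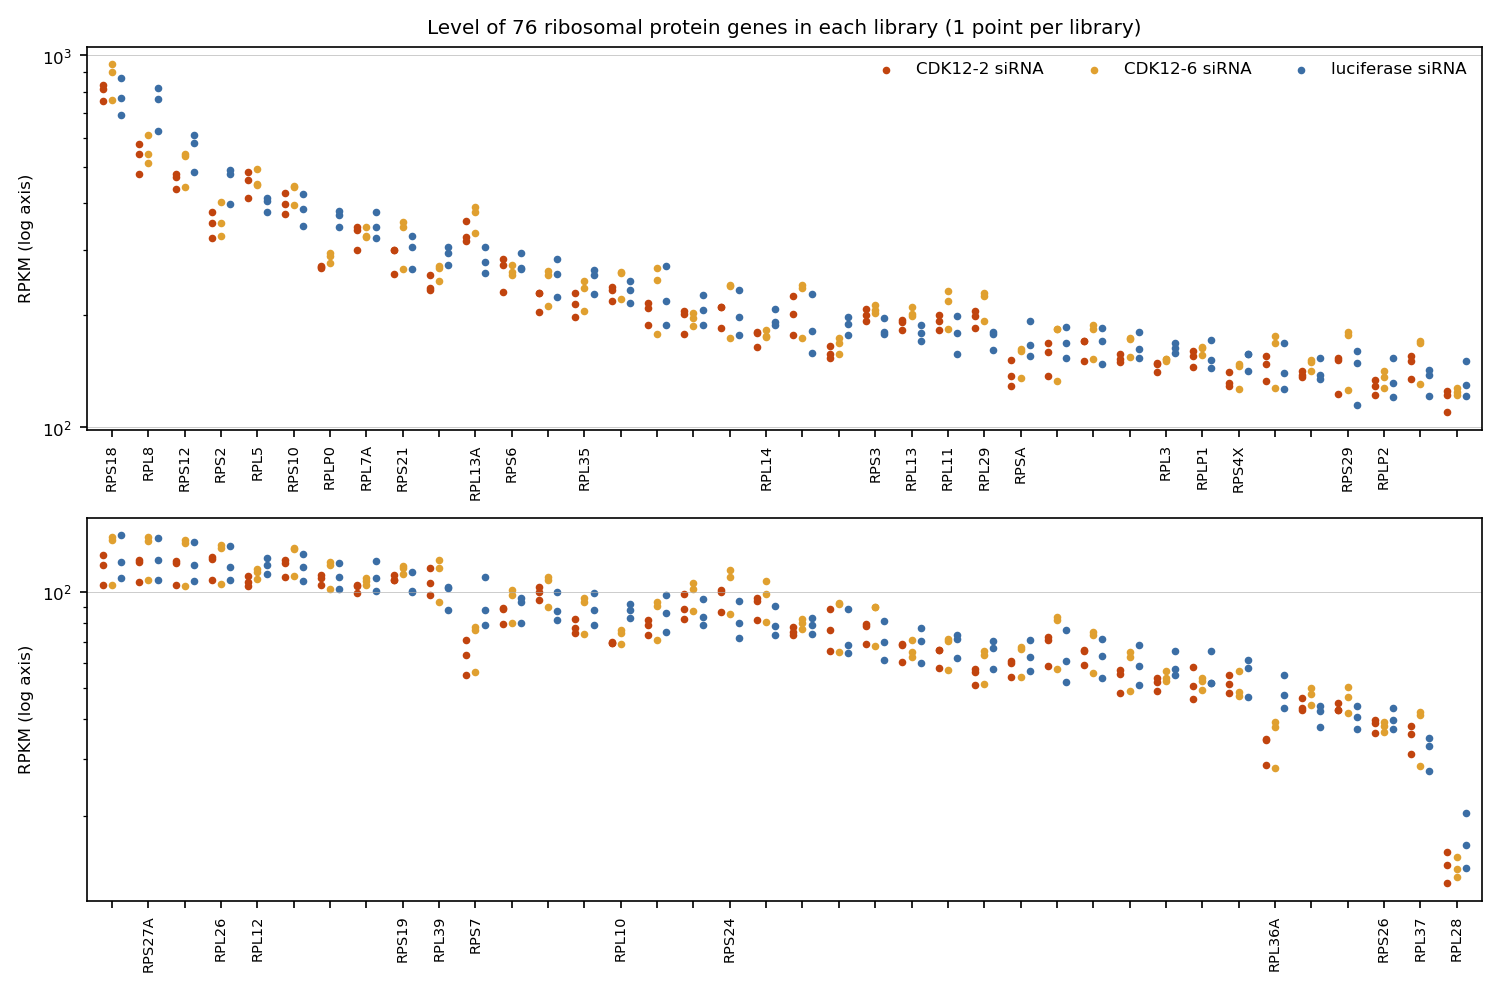
RPKM (log axis) of each of the 76 tested ribosomal protein genes, labelled where named in the text and ordered by their luciferase level, with 1 point per library for CDK12-2, CDK12-6 and luciferase siRNA. The points of most genes interleave, while all CDK12-2 and CDK12-6 points of RPLP0, RPL8, RPL10 and RPL36A lie under the luciferase points.

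The share of reads in ribosomal protein genes did not separate the groups. The 77 genes took 4.89%, 4.37% and 3.88% of the reads in listed genes with CDK12-2 and 5.18%, 4.81% and 4.04% with CDK12-6, against 4.36%, 4.82% and 4.02% with luciferase. The 95% Wilson intervals, which cover counting error only, were narrow: 5.172% to 5.180% for the highest share and 3.877% to 3.884% for the lowest. The groups overlapped, with means of 4.38 ± 0.506%, 4.68 ± 0.580% and 4.40 ± 0.401% (SD, n = 3 each) for CDK12-2, CDK12-6 and luciferase.

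The summed level was 12081 ± 391 RPKM with CDK12-2 and 12909 ± 952 RPKM with CDK12-6, against 12845 ± 808 RPKM with luciferase (SD, n = 3 each). The AK49 library had the lowest share in each group. Over the 76 tested members, it was the lowest of its group for 51 with CDK12-2, for 61 with CDK12-6 and for 60 with luciferase. These are shares of a library made from bulk cells, in which fewer cells of a type and less RNA per cell cannot be told apart.

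**Figure D2:**
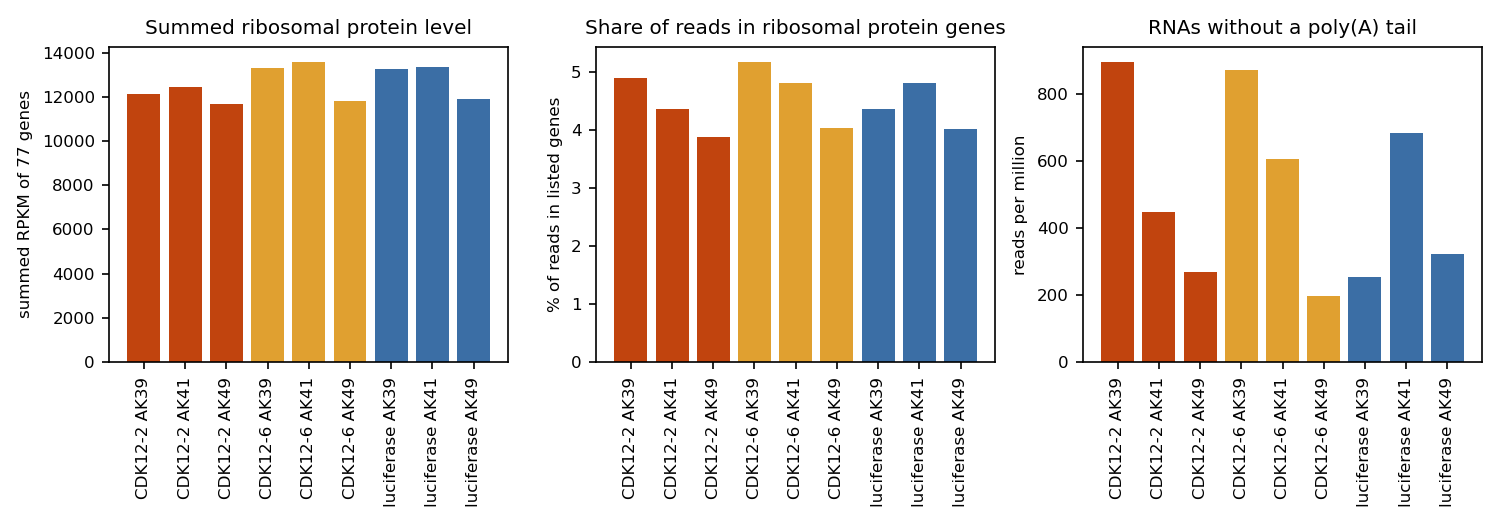
Left, summed RPKM of the 77 ribosomal protein genes in each library; middle, their share of the reads in listed genes (%); right, RNAs that lack a poly(A) tail, as reads per 1000000 reads, with 1 bar per library in the order CDK12-2, CDK12-6, luciferase. AK49 has the lowest share in all 3 groups, and CDK12-2 AK39 and CDK12-6 AK39 stand highest for RNAs that lack a poly(A) tail, at 897 and 874 per 1000000.

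With CDK12-2 siRNA, 5 of the 76 tested members fell and none rose: RPL36A, RPS7, RPL8, RPLP0 and RPL10. With CDK12-6 siRNA, RPL36A, RPL8, RPLP0 and RPL10 fell, and RPL13A and RPL29 rose. The 5 are 6.58% of the members, where 25.2% of all 15208 tested genes passed with CDK12-2, 9.76% higher and 15.4% lower. The 6 are 7.89% of the members, where 26% of all tested genes passed with CDK12-6, 10.4% higher and 15.6% lower. The median SE of the members was 0.12 in both comparisons, against 0.11 over all tested genes.

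The changes of the members were small on both sides. Their log2 fold changes ran from -0.56 to 0.25 with CDK12-2, with a median of -0.07 and an SD of 0.17, against a median of -0.03 and an SD of 0.35 over all tested genes. With CDK12-6 they ran from -0.47 to 0.39, with a median of 0.04 and an SD of 0.18, against a median of -0.04 and an SD of 0.36. The member medians are small beside what 1 library moves. With 1 library left out they ran from -0.10 to -0.02 for CDK12-2 and from -0.04 (without luciferase AK49) to 0.12 (without CDK12-6 AK49) for CDK12-6, and the CDK12-6 median was also below 0 without CDK12-6 AK39 or CDK12-6 AK41. Under the 3 other scalings they ran from -0.001 to 0.02 for CDK12-2 and from 0.08 to 0.12 for CDK12-6. At an unadjusted limma p under 0.05 there were 10 members (13.2%) with CDK12-2 and 11 (14.5%) with CDK12-6, against 37.5% and 38.2% of all tested genes. The comparisons share the 3 luciferase libraries, so their values for a gene are not independent.

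**Figure D3:**
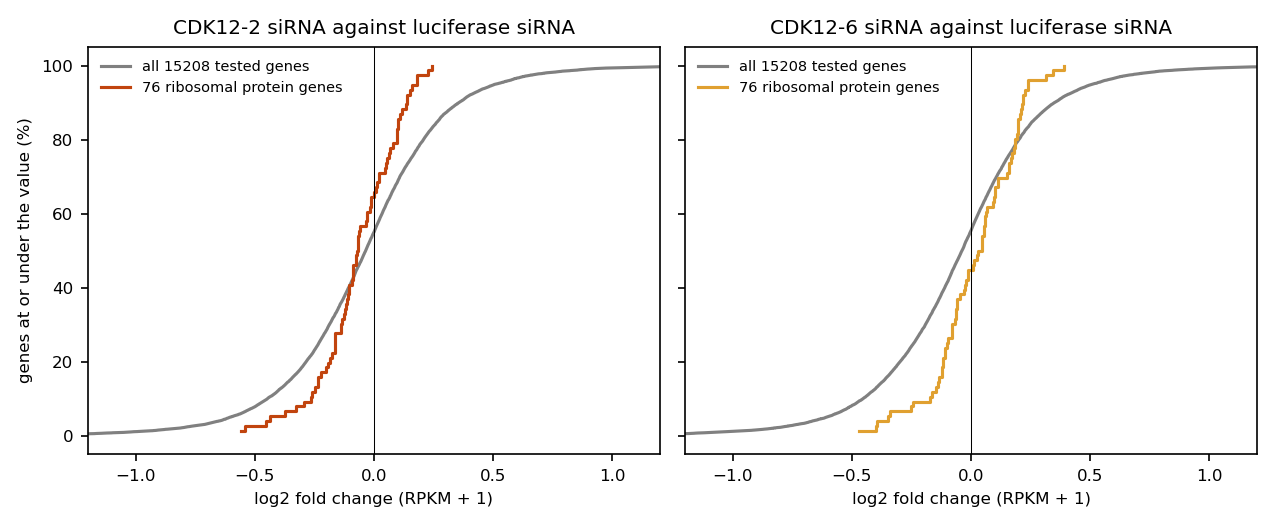
Share of genes (%) at or under each log2 fold change for CDK12-2 (left) and CDK12-6 (right) siRNA against luciferase siRNA, for the 76 tested ribosomal protein genes (coloured) and all 15208 tested genes (grey). The member curves are steeper than the grey curves and lie within -0.56 to 0.39, and the CDK12-6 member curve is to the right of the grey one at the middle, with a median of 0.04 against -0.04.

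The 4 genes that fell with both siRNAs all belong to the 60S subunit, as do 46 of the 76 tested members. Of all 15208 tested genes, 2088 fell with both siRNAs. RPLP0 (chr12:120634489-120639038, hg19) encodes the base of the ribosomal stalk, which recruits elongation factors. It stood at 269, 272 and 269.6 RPKM with CDK12-2 and 289.7, 295 and 277 RPKM with CDK12-6, against 382, 371 and 345 RPKM with luciferase. All 6 CDK12 siRNA libraries were below the 3 luciferase libraries. The log2 fold change was -0.44 with CDK12-2 (SE 0.083, limma adjusted p = 0.00451) and -0.35 with CDK12-6 (SE 0.083, limma adjusted p = 0.0134). Under the 23 other settings, RPLP0 passed in 21 with CDK12-2 and in 17 with CDK12-6, more than any other ribosomal protein gene called here. RPL36A passed in 13 and 11 of them, RPL8 in 14 and 11, and RPL10 in 15 and 8, for CDK12-2 and CDK12-6. RPS7 passed in 11 with CDK12-2, RPL13A in 15 and RPL29 in 8 with CDK12-6. Other scalings were to listed reads, with or without ribosomal protein and mitochondrial genome genes, and quantile normalization. RPL36A with both siRNAs and RPS7 with CDK12-2 passed under none of them. RPL10 with both siRNAs, and RPLP0 and RPL29 with CDK12-6, did not pass when scaled to listed reads in either way. RPL8 with both siRNAs, RPLP0 with CDK12-2 and RPL13A with CDK12-6 passed under all of them.

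RPL36A (chrX:100645812-100651105, hg19), for a small protein of the 60S subunit, had 34.8, 34.5 and 28.9 RPKM with CDK12-2 and 37.9, 39.2 and 28.3 RPKM with CDK12-6, against 47.8, 55.1 and 43.3 RPKM with luciferase. The CDK12 siRNA libraries did not overlap the luciferase libraries, and the AK49 library was the lowest in each group. RPL36A had the largest fall of the members, -0.56 with CDK12-2 (SE 0.14, limma adjusted p = 0.0188) and -0.47 with CDK12-6 (SE 0.14, limma adjusted p = 0.0376). Its exons are also part of the read-through gene RPL36A-HNRNPH2, which fell with CDK12-2 alone (limma adjusted p = 0.0338 for CDK12-2 and 0.0663 for CDK12-6) and had 210.3, 207 and 174 RPKM with CDK12-2 and 229, 236 and 169 RPKM with CDK12-6, against 277, 321 and 249 RPKM with luciferase. Reads in the shared exons cannot be assigned to one of them from this table. HNRNPH2, the downstream gene of that pair, rose by 0.30 with CDK12-2 and by 0.37 with CDK12-6 on the log2 scale (limma adjusted p = 0.0351 for CDK12-2 and 0.0149 for CDK12-6).

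RPL8 had 481, 545 and 578 RPKM with CDK12-2 and 514, 544 and 610.2 RPKM with CDK12-6, against 817, 626 and 762 RPKM with luciferase. The CDK12 siRNA libraries did not overlap the luciferase libraries, but luciferase AK41 lay only just above CDK12-6 AK49. The log2 fold change was -0.45 with CDK12-2 (SE 0.13, limma adjusted p = 0.0290) and -0.40 with CDK12-6 (SE 0.13, limma adjusted p = 0.0477). RPL10 (chrX:153618315-153637504, hg19), which joins the 60S subunit late in its maturation, had 69.4, 69.9 and 69.1 RPKM with CDK12-2 and 76.0, 74.6 and 68.8 RPKM with CDK12-6, against 87.7, 91.5 and 82.9 RPKM with luciferase. Its CDK12 siRNA libraries were all below the lowest luciferase library. It changed by -0.33 with CDK12-2 (SE 0.079, limma adjusted p = 0.0150) and by -0.25 with CDK12-6 (SE 0.079, limma adjusted p = 0.0413).

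RPS7 (chr2:3622795-3628509, hg19), a 40S protein mutated in some patients with the inherited red cell disorder Diamond-Blackfan anaemia, had 70.7, 63.6 and 54.9 RPKM with CDK12-2 and 77.7, 76.1 and 56.1 RPKM with CDK12-6, against 87.9, 111 and 79.0 RPKM with luciferase. All 6 CDK12 siRNA libraries were lower than the 3 luciferase libraries, with CDK12-6 AK39 just under luciferase AK49. The log2 fold change was -0.54 with CDK12-2 (SE 0.16, limma adjusted p = 0.0384) and -0.40 with CDK12-6 (SE 0.16, limma adjusted p = 0.104). RPS2, a 40S protein at the entry of the message channel, came next. It had 322, 354 and 381 RPKM with CDK12-2 and 326, 354 and 403 RPKM with CDK12-6, against 493, 398 and 481 RPKM with luciferase, and did not pass (limma adjusted p = 0.0512 for CDK12-2 and 0.0705 for CDK12-6).

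The genes that rose with CDK12-6 were RPL13A and RPL29. RPL13A, a 60S protein that also represses translation of some messages in human myeloid cells treated with interferon, had 358, 324 and 317 RPKM with CDK12-2 and 391, 380.0 and 334 RPKM with CDK12-6, against 278, 305 and 259 RPKM with luciferase. Every CDK12 siRNA library was above the 3 luciferase libraries. The log2 fold change was 0.39 with CDK12-6 (SE 0.10, limma adjusted p = 0.0229) and 0.25 with CDK12-2 (SE 0.10, limma adjusted p = 0.116). RPL29, a 60S protein, had 205, 199 and 186 RPKM with CDK12-2 and 229.6, 225 and 194 RPKM with CDK12-6, against 180.2, 179 and 162 RPKM with luciferase. It too had no overlap between CDK12 siRNA and luciferase libraries, with 0.31 for CDK12-6 (SE 0.098, limma adjusted p = 0.0414) and 0.18 for CDK12-2 (SE 0.098, limma adjusted p = 0.217). The difference between the siRNAs was not called for RPS7, RPL13A or RPL29 (limma adjusted p = 0.99998 for each).

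No member rose with both siRNAs, where 1322 of all 15208 tested genes did. Ranked by the smaller of their log2 fold changes with the siRNAs, RPL13A, RPS24 and RPL5 were the highest. RPL29 was just under RPL5 with CDK12-2 (0.179 against 0.181) and above it with CDK12-6 (0.31 against 0.22). RPS24, a 40S protein mutated in some patients with Diamond-Blackfan anaemia, had 99.7, 101 and 86.3 RPKM with CDK12-2 and 111, 117 and 85.6 RPKM with CDK12-6, against 80.2, 93.8 and 72.0 RPKM with luciferase, and the groups overlapped (limma adjusted p = 0.277 for CDK12-2 and 0.104 for CDK12-6). RPL5, which carries the 5S ribosomal RNA into the 60S subunit, had 413.4, 486 and 463 RPKM with CDK12-2 and 452, 494 and 449.7 RPKM with CDK12-6, against 413.2, 406 and 379.9 RPKM with luciferase. CDK12-2 AK39 was nearly level with luciferase AK39, and RPL5 did not pass (limma adjusted p = 0.205 for CDK12-2 and 0.128 for CDK12-6).

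In 12 of the 76 tested members (15.8%) the 6 CDK12 siRNA libraries did not overlap the 3 luciferase libraries, against 34.2% of all tested genes. Of these, 3 were higher (RPL13A, RPL29 and RPL5; 14.3% of all genes were higher in this way). The other 9 were lower (19.9% of all genes), among them RPL36A, RPS7, RPL8, RPLP0, RPL10, RPL3 and RPL14. RPL3, which helps to form the peptidyl transferase centre, averaged 146 ± 4.13 RPKM with CDK12-2 and 152 ± 1.02 RPKM with CDK12-6, against 164 ± 5.12 RPKM with luciferase (SD, n = 3 each). It did not pass the test with either siRNA.

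**Figure D4:**
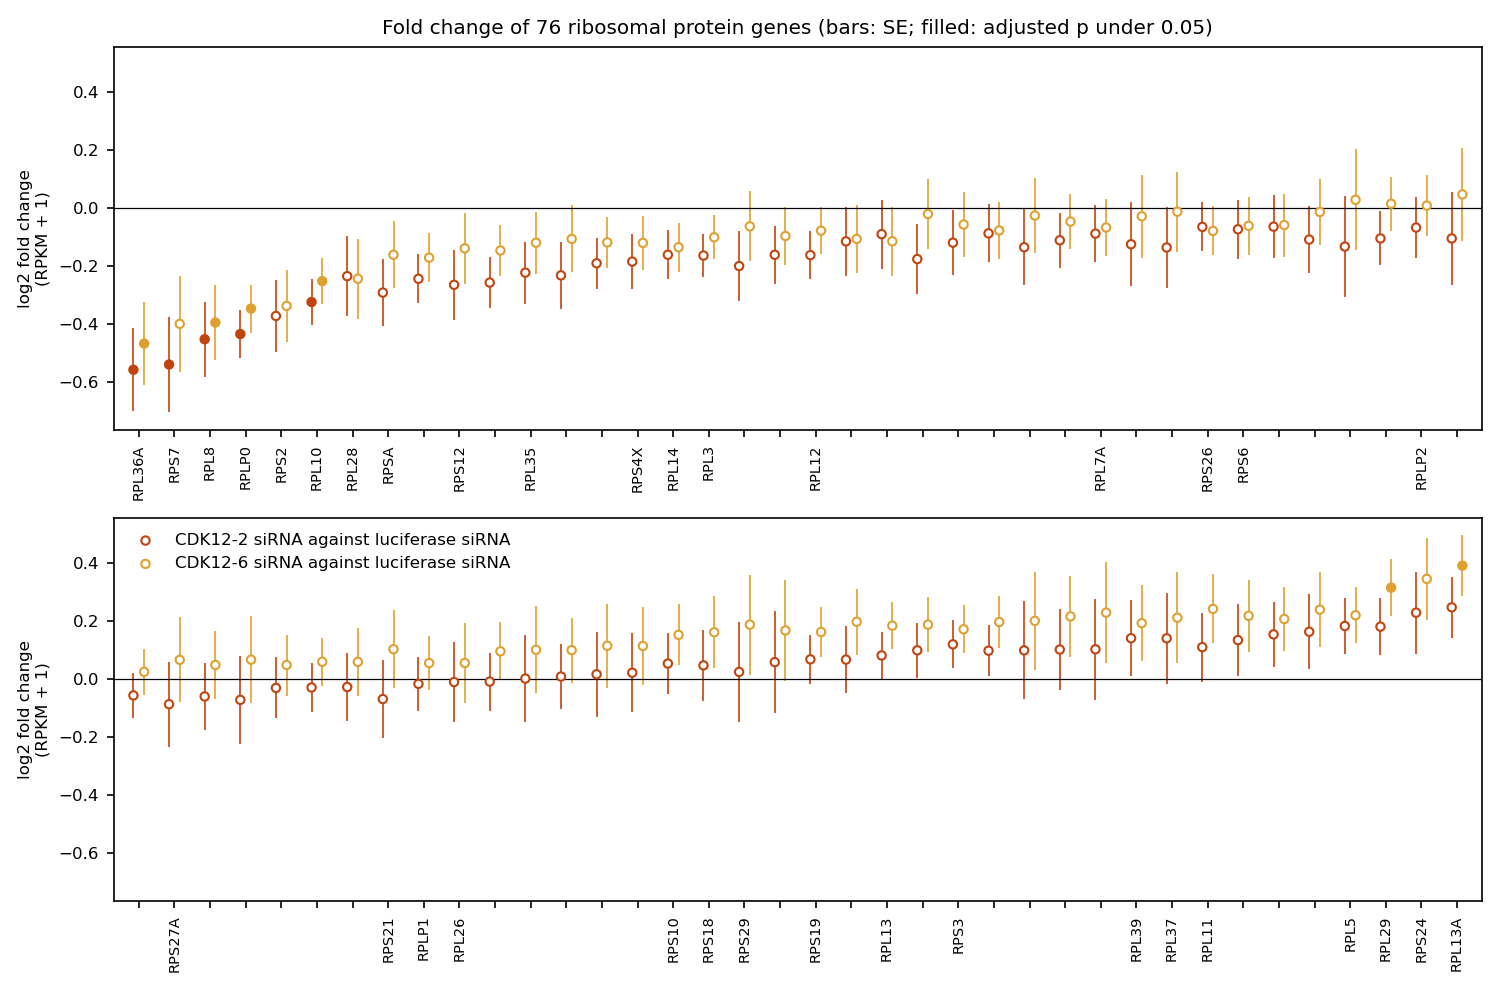
Log2 fold change of each of the 76 tested ribosomal protein genes, labelled where named in the text, with CDK12-2 and CDK12-6 siRNA against luciferase siRNA, with SE bars and filled points where the adjusted p was under 0.05, ordered by the mean of both values. RPL36A, RPL8, RPLP0 and RPL10 are filled and below 0 for both, RPS7 is filled for CDK12-2 only, and RPL13A and RPL29 are filled and above 0 for CDK12-6 only.

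By subunit, 4 of the 46 members of the 60S subunit fell with CDK12-2, and with CDK12-6 4 fell and 2 rose. Of the 30 tested 40S members, 1 fell with CDK12-2 and none passed with CDK12-6. These are 8.70% and 13.0% of the 60S and 3.33% and 0% of the 40S members for CDK12-2 and CDK12-6, where 25.2% and 26% of all tested genes passed. The medians of both subunits were alike, -0.07 and -0.07 with CDK12-2 and 0.04 and 0.04 with CDK12-6 for the 60S and the 40S subunit. Within the ribosomal stalk, RPLP0 fell, while RPLP1, RPLP2 and RPL12 did not pass. RPLP1 averaged 154 ± 7.79 RPKM with CDK12-2 and 162 ± 4.60 RPKM with CDK12-6, against 156 ± 14.3 RPKM with luciferase (SD, n = 3 each). RPLP2 averaged 129 ± 6.02 RPKM with CDK12-2 and 136 ± 7.33 RPKM with CDK12-6, against 135 ± 16.8 RPKM with luciferase (SD, n = 3 each). These acidic stalk proteins bind RPLP0 as pairs.

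None of the 7 tested genes around the peptide tunnel exit, where nascent chains leave the 60S subunit, passed with either siRNA, and their log2 fold changes ran from -0.22 (RPL35) to 0.14 (RPL39) with CDK12-2. None of the 13 tested genes of the 40S head, which swivels as the ribosome moves along the message, passed either, and theirs ran from -0.27 (RPS12) to 0.12 (RPS3) with CDK12-2. The partners RPL5 and RPL11 of the 5S RNA had 0.18 and 0.11 with CDK12-2 and 0.22 and 0.24 with CDK12-6, without passing. Of 17 tested genes mutated in Diamond-Blackfan anaemia, RPS7 was the 1 called (5.88%), with CDK12-2. All these shares stand beside 25.2% of all tested genes with CDK12-2 and 26% with CDK12-6, and subsets of 7 to 17 genes are small for such a comparison. The genes with a tract at the start had medians of -0.06 with CDK12-2 and 0.05 with CDK12-6 (42 genes), and those without had -0.09 with CDK12-2 and -0.00 with CDK12-6 (20 genes). Among the called genes printed above, RPL36A, RPLP0, RPL13A and RPL29 have a tract at the annotated start, and RPL10 and RPS7 have none there. A run of 11 bases begins 8 bases before the start in RPS7, and a run of 5 bases begins 7 before it in RPL10.

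How many members, and how many of all tested genes, passed depended on single libraries. Without luciferase AK39, 1 member passed with CDK12-2 and 0 with CDK12-6 (5 and 6 with all libraries). Over all tested genes the counts were then 2205 and 2173 (3828 and 3961 with all libraries). Without CDK12-2 AK41, 2 members passed with CDK12-2 and 2 with CDK12-6 (2341 and 3169 of all genes). Without CDK12-2 AK49, 3 passed with each siRNA (3130 and 3849 of all genes). Without CDK12-6 AK41, 3 passed with CDK12-2 and 2 with CDK12-6 (3115 and 2394 of all genes). For CDK12-6 the member count was also 2 without CDK12-6 AK39 and 2 without luciferase AK49 (2834 and 2409 of all genes). Without all AK39 libraries, or without all AK41 libraries, no member passed with either siRNA. Of all genes, 2044 and 1867 passed without AK39, and 767 and 830 without AK41, with CDK12-2 and CDK12-6. Scaled to the reads in listed genes, 3 members fell and none rose with CDK12-2, and 2 fell and 2 rose with CDK12-6. Of all genes, 5499 and 5570 passed. After quantile normalization 4 members fell and 2 rose with CDK12-2, and 4 fell and 4 rose with CDK12-6. Of all genes, 5530 and 5586 passed.

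The amount of RNA without a poly(A) tail, which poly(A) selection should remove, differed between libraries. It was 897, 448 and 269.8 reads per 1000000 with CDK12-2 and 874, 606 and 198 with CDK12-6, against 255, 684 and 322 with luciferase. With its log2 as a covariate, 20 members passed with CDK12-2 (1 higher, 19 lower) and 19 with CDK12-6 (11 higher, 8 lower), while 8660 and 8481 of all tested genes passed. Its part in the differences between libraries was not tested.

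Between the CDK12 siRNAs, most ribosomal protein genes were slightly lower with CDK12-2. In the main fit, which did not pair libraries by AK number, no member and no other gene passed (limma, 0% of 15208 tested genes). At an unadjusted limma p under 0.05 there were 0 members and 101 genes in that fit. The fold change of CDK12-2 against CDK12-6 was below 0 in 73 of 76 members, with a median of -0.09, against 0.01 over all tested genes. Its range over the members was -0.17 to 0.02. The median was -0.18 without CDK12-6 AK49, -0.05 without CDK12-6 AK41, -0.06 without CDK12-6 AK39 and -0.06 without CDK12-2 AK49. Other lists also had medians below 0 in this comparison, -0.07 for the mitochondrial ribosomal protein genes, -0.10 for the paralogs and fusion genes and -0.08 for the chaperones of ribosomal proteins, while other TOP messages had -0.01.

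Set side by side within an AK number, the CDK12-2 library was the lower one for 75 of 76 members in AK39, for 67 in AK41 and for 45 in AK49. The median differences of log2(RPKM + 1) were -0.13, -0.15 and -0.01, against -0.02, 0.03 and 0.03 over all tested genes. In 39 of the 76 members (51.3%) CDK12-2 was lower in all 3 AK numbers, which was so for 11.4% of all tested genes, and in 0 members was it higher in all 3. Members share a library's composition, so they do not count as separate observations of this difference, and AK49 shows little of it. The 6 libraries of the CDK12 siRNAs were also fitted alone with the AK number as a block, a choice made after the data were seen. Then 0 members and 2 other genes passed, with 12 members (15.8%) and 8.39% of genes at an unadjusted limma p under 0.05, and the smallest adjusted p of a member was 0.516.

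**Figure D5:**
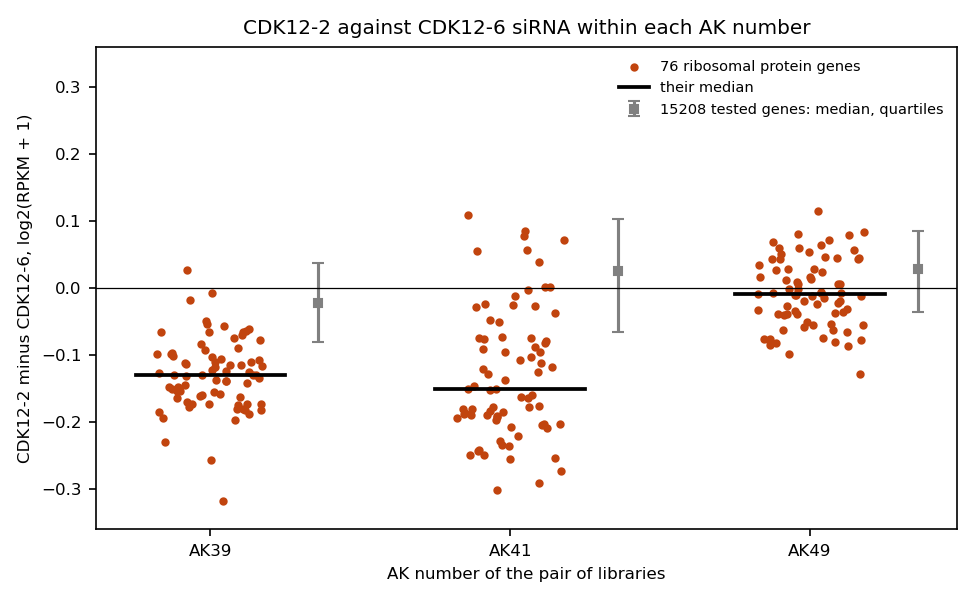
Difference of log2(RPKM + 1) between the CDK12-2 and the CDK12-6 library of each AK number, with 1 point per tested ribosomal protein gene, a black line at their median, and in grey the median and quartiles of all 15208 tested genes. The medians are -0.13 in AK39, -0.15 in AK41 and -0.01 in AK49.

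The largest such differences with one sign in all 3 AK numbers were those of RPS29, RPS21 and RPS27A, all of the 40S subunit. RPS29 had 154, 152 and 123 RPKM with CDK12-2, against 181, 177 and 126 RPKM with CDK12-6. RPS21 had 299, 299 and 258 RPKM with CDK12-2, against 358, 346 and 267 RPKM with CDK12-6. RPS27A, whose protein is made as a fusion with ubiquitin, had 126, 124 and 108 RPKM with CDK12-2, against 144, 148 and 109 RPKM with CDK12-6. In all of them the libraries of AK49 were close to each other, and those of AK39 and AK41 were apart. In the luciferase libraries RPS29 had 149, 160.2 and 115 RPKM, which overlapped the values of both.

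In 4 members the 3 CDK12-2 libraries lay wholly below the 3 CDK12-6 libraries, RPL13, RPL3, RPLP0 and RPS19, where 2.03% of all tested genes did so. RPS19, the first gene found mutated in Diamond-Blackfan anaemia, had 109, 113 and 109 RPKM with CDK12-2, against 119, 120.5 and 114 RPKM with CDK12-6. RPL13 had 195, 183 and 192 RPKM with CDK12-2, against 202, 199.7 and 210.5 RPKM with CDK12-6. The ratio of the mean RPKM with CDK12-2 to that with CDK12-6 was 0.931 for RPL13, 0.957 for RPL3, 0.940 for RPLP0 and 0.936 for RPS19, and none of the 4 passed the test.

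Genes that work beside the ribosomal proteins are given from lists by function. Of 8 tested paralogs and fusion genes, 1 fell with CDK12-2 (12.5%), and with CDK12-6 1 rose and 1 fell (25%), beside 25.2% and 26% of all tested genes. RPL26L1, a close copy of RPL26, rose with CDK12-6 (0.34, SE 0.097, limma adjusted p = 0.0299), and RPL7L1 fell with it (-0.34, SE 0.11, limma adjusted p = 0.0430). Neither passed with CDK12-2, where RPL26L1 had 0.20 and RPL7L1 had -0.28 on the log2 scale. FAU, which encodes a 40S protein joined to a ubiquitin-like domain, averaged 123 ± 2.93 RPKM with CDK12-2 and 134 ± 7.16 RPKM with CDK12-6, against 124 ± 6.65 RPKM with luciferase (SD, n = 3 each), and did not pass.

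Among 78 mitochondrial ribosomal protein genes, which serve the separate ribosome of mitochondria, 2 rose and 13 fell with CDK12-2, and 4 rose and 7 fell with CDK12-6. MRPL24 averaged 7.38 ± 0.575 RPKM with CDK12-2 and 7.28 ± 0.599 RPKM with CDK12-6, against 15.7 ± 0.797 RPKM with luciferase (SD, n = 3 each). MRPS7 averaged 15.2 ± 0.730 RPKM with CDK12-2 and 16.3 ± 0.352 RPKM with CDK12-6, against 27.2 ± 0.937 RPKM with luciferase (SD, n = 3 each). MRPL51 rose by 0.33 with CDK12-2 and by 0.43 with CDK12-6 on the log2 scale. MRPL30, listed under 2 identifiers, rose by 0.48 and 0.41 with CDK12-6. The list had a called share of 19.2% with CDK12-2 and 14.1% with CDK12-6, under the 25.2% and 26% of all tested genes.

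Of 15 other TOP messages, which carry the same kind of tract, 1 rose and 3 fell with each siRNA. That is 26.7%, near the 25.2% and 26% of all tested genes. NAP1L1, a histone chaperone, rose by 0.51 with CDK12-2 and by 0.53 with CDK12-6. EEF1D, a subunit of the elongation factor exchange complex, fell by 0.47 with CDK12-2 and by 0.39 with CDK12-6 on the log2 scale. VIM, the intermediate filament vimentin, fell by 0.62 with CDK12-2 and by 0.66 with CDK12-6. EEF1A1, the main elongation factor of translation, averaged 532 ± 27.6 RPKM with CDK12-2 and 544 ± 56.2 RPKM with CDK12-6, against 509 ± 58.4 RPKM with luciferase (SD, n = 3 each), and did not pass.

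Of 35 ribosome assembly genes, 1 rose and 8 fell with CDK12-2, and 1 rose and 9 fell with CDK12-6. The shares of 25.7% and 28.6% are near the 25.2% and 26% of all tested genes. The medians were -0.21 with CDK12-2 and -0.14 with CDK12-6, against -0.03 and -0.04 over all tested genes. MRTO4, which helps to build the stalk and holds the place of RPLP0 in the precursor of the 60S subunit, averaged 15.1 ± 1.53 RPKM with CDK12-2 and 15.2 ± 1.06 RPKM with CDK12-6, against 26.5 ± 1.12 RPKM with luciferase (SD, n = 3 each). RRP9, a protein of the U3 small nucleolar particle, fell by 0.54 with CDK12-2 and by 0.49 with CDK12-6 on the log2 scale. NOB1, the nuclease that makes the end of the 18S RNA, rose by 0.37 with CDK12-2 and by 0.42 with CDK12-6.

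None of the 6 genes for chaperones dedicated to ribosomal proteins passed. PDCD2, which accompanies RPS2, had -0.23 with CDK12-2 and -0.14 with CDK12-6 on the log2 scale, and TSR2, which accompanies RPS26, had -0.29 with CDK12-2 and -0.33 with CDK12-6. Among 12 genes that control TOP messages and mTORC1, 1 rose and 2 fell with each siRNA, which is 25%, near the share of all tested genes. EIF4EBP2, an inhibitor of the cap-binding protein that mTORC1 switches off, averaged 19.97 ± 4.44 RPKM with CDK12-2 and 18.3 ± 2.87 RPKM with CDK12-6, against 7.98 ± 1.11 RPKM with luciferase (SD, n = 3 each). RPS6KB2, a kinase of the ribosomal protein RPS6, fell by 0.56 with CDK12-2 and by 0.59 with CDK12-6. AKT1, a kinase upstream of mTORC1, fell by 0.43 with CDK12-2 and by 0.43 with CDK12-6. LARP1 averaged 43.8 ± 13.3 RPKM with CDK12-2 and 40.7 ± 12.01 RPKM with CDK12-6, against 49.1 ± 10.9 RPKM with luciferase (SD, n = 3 each), and did not pass.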

How the data were processed

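Messenger RNA of 9 OVCAR-8 libraries was sequenced after preparation with a poly(A)-selecting kit that does not mark strand. The deposited table holds RPKM values per gene, with hg19 coordinates, listed exon length and Ensembl identifiers. It also holds the authors' log2 fold change and their p-value adjusted as a false discovery rate for 1 comparison, per the file headers. Submitters' processing notes name TopHat2, featureCounts, edgeR and hg19, without settings, and the annotation version was not given in the sources used here. Reads of overlapping genes, read-through genes and antisense partners cannot be told apart.

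RPKM values multiplied by listed length plus 1 were whole multiples of a step for 100% of values (tolerance 0.001), which gave read numbers for depths and shares. The step was used for nothing else. The test was limma 3.58.1 (R 4.3.3, eBayes with trend) on log2(RPKM + 1), as planned for a table in RPKM. A count test was planned only for a table of counts. All 9 libraries were in 1 fit, with Benjamini-Hochberg adjustment over 15208 genes. A fold change on this scale understates the change of low genes. The fit was tested on simulated data.

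Members, gene lists, tests and alternatives were chosen with earlier results of these data known. Genes named are CDK12; the 5 highest and 5 lowest members; members called with both siRNAs or with 1; the 3 with the largest difference within AK numbers; and up to 2 per direction in each list. Genes of RNAs without a poly(A) tail are given as counts only. A few genes this rule would name are not reported here. RPS2, RPL3, RPS19, RPL13, RPLP1, RPLP2, FAU, EEF1A1, LARP1, HNRNPH2 and members of the subsets were named after their values were seen. Whether the AK number pairs libraries was checked from deviations from group means. Same-number r over genes was 0.76, 0.13 and 0.81 between CDK12-2 and CDK12-6. These were therefore set side by side within AK numbers and fitted alone with the AK number as a block. The main fit did not pair them. Same-number r was -0.56, -0.13 and 0.65 between CDK12-2 and luciferase and -0.51, 0.47 and 0.75 between CDK12-6 and luciferase. Not every one of these was above 0.1, so they were not treated as paired. Libraries of different numbers also reached an r of 0.80 (CDK12-6 AK39 and luciferase AK41) and 0.74 (CDK12-2 AK39 and luciferase AK41). So r does not establish which libraries the number pairs. Settings varied were the pseudocount, the filter, scaling, blocking, each library left out, the libraries fitted, a covariate and the eBayes trend.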

Additional observations from a re-analysis of the deposited data

How the results depend on the processing

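No ribosomal protein gene passed for CDK12-2 against CDK12-6 under any of the 24 settings run for all comparisons. None passed either in the 6 CDK12 siRNA libraries fitted alone with the replicate block. All named calls against luciferase kept their direction under the 23 other settings. The count of members that fell or rose did not hold. For CDK12-2 (5 members), it was 2 without a filter on low values, 3 when scaled to reads in listed genes and 3 when scaled to those outside ribosomal protein and mitochondrial genome genes. It was 8 without the eBayes trend, 20 with the covariate for RNA without a poly(A) tail, 3 without the library richest in such RNA per group, and 0, 0 and 3 without AK39, AK41 and AK49 in all groups. For CDK12-6 (6 members), it was 2 without a filter, 2 with only the 6 libraries compared, 19 with the covariate, and 0, 0 and 1 without those AK numbers. With single libraries left out, counts ran from 1 to 6 and from 0 to 8. Under the replicate block, which groups same-number libraries of all groups, 11 and 11 members passed, beside 5080 and 5162 of all tested genes. Neither the labels nor r settle whether the AK number pairs libraries with luciferase.

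Over all genes, 3828 passed with CDK12-2 and 3961 with CDK12-6. With at least 5 RPKM in 3 libraries these were 1945 and 2025. Without a filter they were 4370 and 4383, and without the eBayes trend 3825 and 3956. Scaled to reads in listed genes they were 5499 and 5570, and to those outside ribosomal protein and mitochondrial genome genes 5544 and 5613. Without the library richest in RNA without a poly(A) tail per group they were 3837 and 3961. With only the 6 libraries compared they were 3400 and 3474. Without AK39, AK41 and AK49 in all groups they were 2044, 767 and 2358 with CDK12-2 and 1867, 830 and 2430 with CDK12-6. With the covariate they were 8660 and 8481. With single libraries left out they ran from 2205 to 4171 with CDK12-2 and from 2173 to 4396 with CDK12-6. Between the siRNAs, 2 genes passed without a filter, 1 with the covariate, 1 without the libraries richest in RNA without a poly(A) tail, and 2 in the 6 libraries fitted alone with the replicate block. The cause of these changes was not tested. RPL10 (8 of 23 settings) and RPL29 (8 of 23) with CDK12-6 were the ribosomal protein calls most often lost. The tested members had at least 8300 reads in every library (RPS26), so counting error is small beside the spread between libraries.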

Other observations

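The files list 850 pseudogenes named after 74 of the 77 ribosomal protein genes, with 61 for RPL7 and 56 for RPL21. Their reads came to 3.41% to 3.68% of the reads of the members over the 9 libraries. In the luciferase libraries the pseudogenes of RPSA held reads equal to 27.8%, and those of RPL39 to 24.4%, of those of the gene itself. For both genes the split between gene and copies is uncertain.

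In 29 members 60 small nucleolar RNA genes lie within the gene's span. An overlapping listed gene with over 10% of a member's reads was found for 18 members, among them RPS10 with RPS10-NUDT3, RPL17 with RPL17-C18orf32, and RPS29 with the signal recognition particle RNA gene RN7SL1.

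In the authors' deposited table, 6 of the 77 members were lower at a false discovery rate under 0.05 and 0 were higher: RPL36A, RPS7, RPL8, RPLP0, RPS2 and RPL10. The share of all listed genes under that limit was not computed, so these counts cannot be set against it. The log2 fold changes of the members in the authors' deposited table ran from -0.53 to 0.31.

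Of 44 tested genes for RNAs without a poly(A) tail, 5 fell and 0 rose with CDK12-2, and 3 fell and 2 rose with CDK12-6. That is 11.4% with each siRNA, under the 25.2% and 26% of all tested genes.

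Across the tested genes the difference between CDK12-2 and CDK12-6 had a Spearman's rho of 0.23 with listed length over 15208 genes, and of 0.09 over the 76 members, whose median length was 2903 bases against 3667 bases for all tested genes. Genes are not independent replicates, and these correlations share the 6 libraries.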
